A study of Mus musculus with 14 samples.

Results

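The 7 genes described here encode proteins that set how long short-lived mRNAs last: Zfp36, Zfp36l1, Zfp36l2, Zc3h12a, Rc3h1, Elavl1 and Khsrp. They were chosen by symbol from the 43472 genes listed in each of the normalised count tables, and all 7 were found in both and passed the filter on low values. The libraries came from primary fibroblasts of C57BL/6 mouse tail tips, grown as a monolayer and scratch-wounded. They were either left untreated or given an autologous micrograft (AMG), the soluble, cell-depleted extract of mechanically disrupted mouse skin biopsies, in growth medium. Age was not given in the labels, and neither was the number of mice behind each culture. Replicate 1 held 1 untreated and 1 AMG-treated library at each of 1, 5, 12 and 24 h (8 libraries), and replicates 2, 3 and 4 held both conditions at 5 h (6 libraries in a second table with its own scaling), so levels are compared only within a table.

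Many cytokine, chemokine and immediate early mRNAs carry AU-rich elements or stem-loops in their 3′ untranslated regions (3′ UTRs). Zfp36 (tristetraprolin) and its paralogs Zfp36l1 and Zfp36l2 bind AU-rich elements through zinc fingers and recruit the deadenylase complex, which shortens the poly(A) tail. Khsrp (KSRP) also promotes the decay of AU-rich mRNAs, whereas Elavl1 (HuR) binds many of the same elements and stabilises them. Zc3h12a (regnase-1) is an endonuclease that cleaves stem-loops in inflammatory mRNAs, and Rc3h1 (roquin-1) binds such stem-loops and recruits the deadenylase. Several of these genes are induced by the same inflammatory signals as their targets, and Zfp36 mRNA is itself bound by the protein it encodes.

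The transcripts of these regulators were searched for the AU-rich heptamer TATTTAT, the core of the element bound by the Zfp36 family, in the DNA letters of the transcript strand. The sites are shown because they place the regulators among possible targets of their own family. All sites are from GRCm38 (mm10) with GENCODE M21 transcripts, 5′ to 3′, with every copy of the heptamer in capitals. The Zfp36 3′ UTR of 774 bases holds 3 copies, at chr7:28376971-28376989, chr7:28376956-28376974 and chr7:28376931-28376949 on the minus strand.
Zfp36 site 1: gcccttTATTTATgacgac
Zfp36 site 2: cgacttTATTTATtgtatt
Zfp36 site 3: ttatagTATTTATatatat

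The 3′ UTRs of both paralogs also hold 3 copies each. Those of Zfp36l1 lie at chr12:80108427-80108445, chr12:80108386-80108404 and chr12:80108172-80108190 on the minus strand.
Zfp36l1 site 1: aaaacgTATTTATtgccaa
Zfp36l1 site 2: tgttcaTATTTATcgggat
Zfp36l1 site 3: ttggatTATTTATtttaga

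Those of Zfp36l2 lie at chr17:84184919-84184937, chr17:84184871-84184889 and chr17:84184685-84184703, also on the minus strand.
Zfp36l2 site 1: ttaactTATTTATtatctt
Zfp36l2 site 2: atactgTATTTATcgagta
Zfp36l2 site 3: atgtaaTATTTATttcatt

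The Elavl1 3′ UTR holds 8 copies, many of them overlapping in long runs such as that at chr8:4285747-4285773 (minus strand), which is shown with its 3 overlapping copies.
Elavl1 site 3: tttgttTATTTATTTATTTATtacttg

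Rc3h1 holds 2 copies in a 3′ UTR of 7181 bases, and the 3′ UTRs of Zc3h12a (856 bases) and Khsrp (1642 bases) hold none. In all, 5 of the 7 regulators (71.4%) have at least 1 copy, beside 26.1% of the 20732 genes with an annotated 3′ UTR, and 17 of 24 listed target transcripts (70.8%). The latter were listed as known targets of these factors, so their share is no independent comparison. The counts rest on the transcript chosen, which for Vegfa has a 3′ UTR of 27 bases. Length matters to such a count. Among 3′ UTRs within 20% of the same length, at least as many copies were found in 1.28% for Zfp36, in 4.17% for Zfp36l1, in 4.16% for Zfp36l2, in 48.8% for Rc3h1 and in 0.241% for Elavl1. A match describes the letters only, and no binding was measured.

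The libraries held between 12545537 and 34696529 counted reads. In 2 of them the ribosomal protein genes took a larger share of the reads than in the other 12 (2.26% to 3.45%): untreated at 5 h in replicate 1 (6.93%) and AMG-treated at 1 h in replicate 1 (5.05%). Within replicates 2 to 4 the share also moved with treatment, at 2.38%, 2.80% and 2.26% in untreated and 3.38%, 3.13% and 3.45% in AMG-treated libraries, and its part in the results was not tested. The treated to untreated ratio also depended on transcript length across all genes, with Spearman's rho of −0.52 at 1 h and 0.49 at 5 h in replicate 1 and of −0.43 to −0.22 in replicates 2 to 4, so ratios of the long transcripts (Rc3h1 with 11006 bases and Elavl1 with 5743 bases) are also given with that trend removed. All 8 fibroblast markers were above the floor of 3 reads in every library. Their summed normalised count was lower in each treated library of replicates 2 to 4 (252808, 272195 and 334815) than in its untreated pair (456642, 344719 and 497137). Col1a1 and Col1a2 made up most of that sum. Thy1 was instead higher upon treatment in replicates 2 (1723 against 1339) and 4 (1473 against 1068), and slightly lower in replicate 3 (14412 against 14712). In replicate 1 at 5 h the fibroblast sum was higher in the treated library (198598) than in the untreated one (161136). Of 7 leukocyte markers, 4 to 7 reached the floor in each library of replicates 2 to 4. Their summed normalised count was 237 to 1509 in untreated and 511 to 1794 in AMG-treated libraries, with Ptprc at 0 in 1 untreated and 2 treated libraries. The monocyte marker Cd14 made up most of that shift, at 73.8 to 174 in untreated and 307 to 640.4 in treated libraries. Lyz2 was instead lower upon treatment in replicates 2 (127 against 158) and 4 (916 against 978). Csf1r was lower there too (59.8 against 81.4, and 107 against 182), and both were higher in replicate 3. The part of other cells in the results below was not tested. In replicate 1 at 5 h the leukocyte sum was instead lower in the treated library (1051) than in the untreated one (2057), with Lyz2 at 315 and 1541. Over all 14 libraries the summed normalised counts were 7.63 to 238 for 4 endothelial and 23.7 to 160 for 5 keratinocyte markers. In bulk libraries, fewer cells of a type and less RNA per cell cannot be told apart.

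Upon AMG treatment for 5 h in replicates 2 to 4, Zc3h12a transcript levels were upregulated 12.0-fold, and it was the only gene of the 7 called by limma without a replicate block. That model called 1.24% of the 13096 genes tested, 0.970% as higher. Elavl1, Zfp36l2 and Rc3h1 had higher levels in every treated library than in any untreated library but did not pass it. The replicate numbers pair the libraries, and with the replicate number as a block 5 of the 7 genes were called, all of them higher (Zc3h12a, Elavl1, Zfp36l2, Zfp36l1 and Rc3h1), where the blocked model called 37.2% of all genes, 17.9% as higher. Only Zc3h12a was called when the 5 h pair of replicate 1 was added to the blocked model (log2 fold change 3.62, adjusted p = 0.000594 in limma). The other 4 lost the call there, with 0.59 for Zfp36l1 (adjusted p = 0.124), 0.69 for Zfp36l2 (0.113), 0.34 for Rc3h1 (0.236) and 0.40 for Elavl1 (0.258). Zfp36 and Khsrp passed neither model. The median log2 fold change was 0.42 over the 7 genes and −0.02 over all genes tested.

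**Figure D1:**
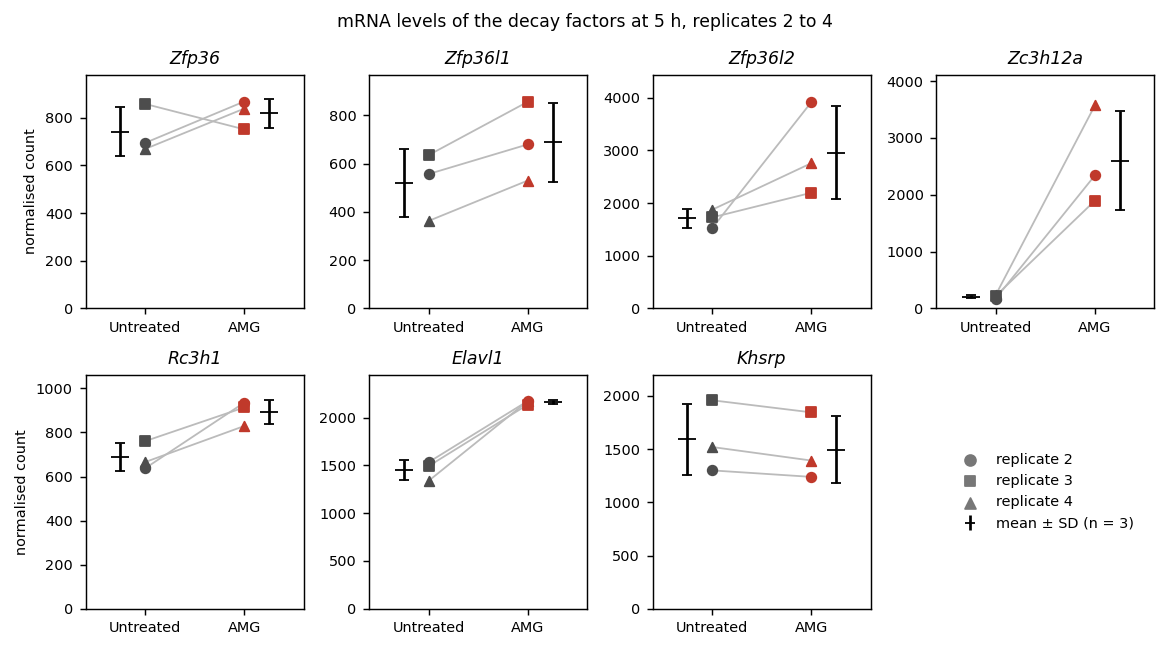
Normalised counts (vertical axes from 0) of the 7 genes at 5 h in replicates 2 to 4. Each marker is 1 library, grey lines join libraries with the same replicate number, and bars give the mean ± SD (n = 3). Zc3h12a rose from 174 to 236 in untreated libraries to 1896 to 3571 in AMG-treated libraries, while the values of Zfp36 and Khsrp overlapped between conditions.

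Zc3h12a (ENSMUSG00000042677, chr4:125118423-125127840, minus strand) had normalised counts of 174, 220.0 and 236 in untreated replicates 2, 3 and 4, and of 2341, 1896 and 3571 in the AMG-treated libraries of the same numbers. Every treated library lay far above every untreated one, and the annotation gives no other gene overlapping it. The mean rose from 210 ± 32.2 to 2603 ± 868 (SD, n = 3), a log2 fold change of 3.59 (SE 0.25, 95% interval 2.99 to 4.19, adjusted p = 0.00567 in limma, and 1.09e-06 with the block). Without the AMG-treated library of replicate 2 the difference was 3.64 with an adjusted p of 0.0703 in limma, a fit that called 1 gene of all those tested where the fit on all 6 libraries called 162. Only 0.405% of the genes tested had a larger log2 fold change. The pairs of replicates 1 to 4 gave log2 ratios of 3.72, 3.74, 3.10 and 3.92, so all 4 pairs moved in the same direction.

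Elavl1, the stabilising factor (ENSMUSG00000040028, chr8:4285382-4325413, minus strand), had normalised counts of 1533, 1493 and 1338 in untreated and of 2174, 2137 and 2174 in AMG-treated libraries of replicates 2 to 4. The groups did not overlap, and the SD was 103 in untreated and 21.4 in treated libraries. Its log2 fold change was 0.57 (SE 0.11, 95% interval 0.31 to 0.83), with an adjusted p of 0.0618 in limma and of 0.00203 with the block. Removing the length trend raised the difference to 0.81, which then passed the threshold without a block (adjusted p = 0.0457 in limma). In replicate 1 the ratio at 5 h was −0.13 and thus pointed the other way, with −0.61 after the length correction. The gene overlaps Ccl25 on the opposite strand (at most 112 normalised counts), and since the strand setting of the counting was not given, reads of overlapping genes may be mixed. The same limit holds for Zfp36, Zfp36l2 and Khsrp, which overlap annotated genes on the opposite strand that were not among those counted. Rc3h1 overlaps annotated genes on its own strand, also not among those counted, so strand could not separate their reads.

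Among the Zfp36 family, Zfp36l2 (ENSMUSG00000045817, chr17:84183931-84187947, minus strand) had the largest log2 fold change at 5 h over replicates 2 to 4. Its normalised counts were 1522, 1728 and 1874 in the untreated and 3917, 2196 and 2758 in the treated libraries of replicates 2, 3 and 4. The groups were separate, with the treated library of replicate 2 farthest above. The log2 fold change was 0.76 (SE 0.22, 95% interval 0.24 to 1.28, adjusted p = 0.121 in limma and 0.00787 with the block). The pairs of replicates 1 to 4 gave log2 ratios of 0.49, 1.36, 0.35 and 0.56, beside 1.09, 0.29, 0.43 and 0.55 for Zfp36l1. Zfp36l1 thus had the larger ratio in replicates 1 and 3, and only in replicate 2 was Zfp36l2 far ahead.

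Zfp36l1 (ENSMUSG00000021127, chr12:80107754-80113013, minus strand) had normalised counts of 557, 635 and 362 in untreated and of 679, 856 and 530 in treated libraries. The groups overlapped because replicate 4 was low and replicate 3 high in both conditions, yet within each pair the treated library was higher. The log2 fold change was 0.42 (SE 0.27, 95% interval −0.21 to 1.05, adjusted p = 0.370 in limma and 0.0174 with the block).

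Zfp36 itself (ENSMUSG00000044786, chr7:28376784-28380253, minus strand) had normalised counts of 694, 858 and 669 in untreated and of 868, 751 and 838 in treated libraries at 5 h. The treated library was higher in replicates 2 and 4 and lower in replicate 3, and the groups overlapped. The log2 fold change of 0.15 (SE 0.15) did not pass the test in limma (adjusted p = 0.559, and 0.375 with the block), and its 95% interval of −0.19 to 0.50 covers changes in either direction.

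Rc3h1 (ENSMUSG00000040423, chr1:160906418-160974978, plus strand) had normalised counts of 637, 760.3 and 665 in untreated and of 935, 913 and 829 in treated libraries. The groups did not overlap. Its log2 fold change was 0.38 (SE 0.13, 95% interval 0.07 to 0.69), with an adjusted p of 0.158 in limma and of 0.0228 with the block, and after the length correction 0.71 (adjusted p = 0.0612 without and 0.00195 with the block).

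Khsrp (ENSMUSG00000007670, chr17:57021051-57031522, minus strand) had normalised counts of 1300.2, 1959 and 1519.9 in untreated and of 1239, 1845 and 1393 in treated libraries. The pairs lay close together and replicate 3 was highest in both conditions. The log2 fold change of −0.09 (SE 0.21, 95% interval −0.59 to 0.40) did not pass limma's test (adjusted p = 0.818, and 0.437 with the block), and its sign turned to 0.03 after the length correction.

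The groups did not overlap for 4 of the 7 genes, all higher upon treatment, beside 15.1% of all genes tested that were separate and higher and 28.7% separate in either direction. The libraries are labelled as numbered replicates, but nothing says how the cultures were separated, so the p-values measure the spread between these libraries only.

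**Figure D2:**
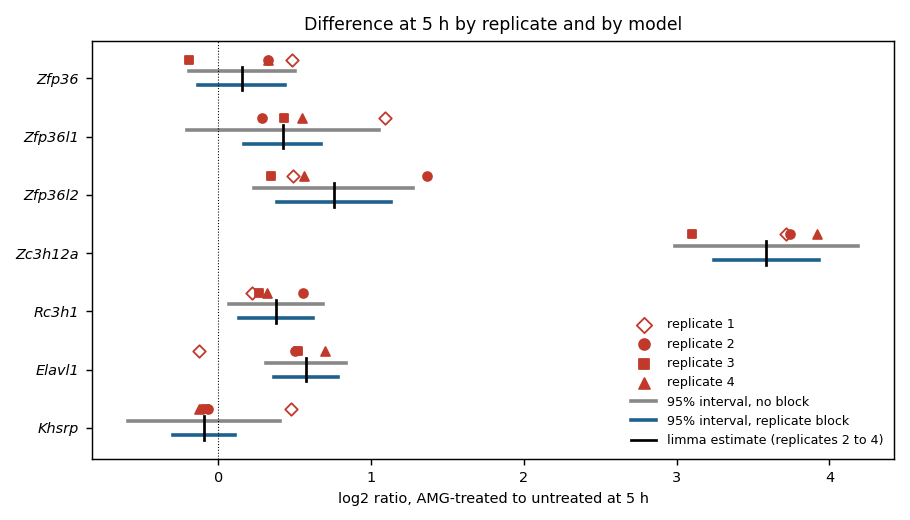
Log2 ratio of AMG-treated to untreated normalised counts at 5 h for each gene. Markers give each replicate's pair (replicate 1 open), the vertical tick the limma estimate from replicates 2 to 4, and the bars its 95% interval without and with the replicate block. Zc3h12a lies between 3.10 and 3.92 in all 4 pairs. Replicate 1 lies apart for Khsrp (0.48 against −0.13 to −0.07), Elavl1 (−0.13 against 0.50 to 0.70) and Zfp36l1 (1.09 against 0.29 to 0.55).

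Levels of different genes were compared per kilobase of the principal GENCODE transcript, so their order rests on the transcript chosen. That of Zfp36 (2790 bases) begins upstream of the RefSeq start. Over a shorter transcript its level per kilobase would be higher, so its place in the orders below is not fixed. In the untreated libraries of replicates 2 to 4, Zfp36l2 (431 to 531 normalised counts per kilobase) and Khsrp (327 to 492) were highest and their ranges overlapped. Zfp36 (239.6 to 307) and Elavl1 (233 to 267) followed with overlapping ranges, then Zfp36l1 (121 to 212). Zc3h12a (63.1 to 85.6) and Rc3h1 (57.9 to 69.1) were lowest, and their ranges overlapped as well.

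The AMG-treated libraries had another order. Zc3h12a reached 688 to 1296 normalised counts per kilobase and thus moved from the sixth place in each untreated library of replicates 2 to 4 to the second in AMG-treated replicate 2 and the first in AMG-treated replicates 3 and 4. Its range overlapped that of Zfp36l2 (622 to 1110 per kilobase). Elavl1 (372 to 379), Khsrp (312 to 464), Zfp36 (269 to 311) and Zfp36l1 (177 to 286) lay below both. The ranges of Elavl1 and Khsrp overlapped, as did those of Zfp36 and Zfp36l1, while Zfp36 lay just below Khsrp (311.0 against 311.5 where they came closest), and Rc3h1 remained last with 75.3 to 85.0.

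The time course of replicate 1 showed how the members differ in timing, with 1 library per condition and time and therefore no test. Its 95% intervals are exact and cover counting error only. Zfp36 was upregulated at 1 h and was back near its untreated level at 12 h, Zc3h12a was high at all 4 times, Zfp36l1 was higher at all 4 times by a smaller ratio, and Zfp36l2 was lower than untreated at 12 and 24 h. A ratio past 1 on the log2 scale, in either direction, was reached by 2 of the 7 genes at 1 h (Zfp36 and Zc3h12a, beside 22.0% of all genes), by 2 at 5 h (Zc3h12a and Zfp36l1, beside 25.9%), by the same 2 at 12 h (beside 12.8%) and by 1 at 24 h (Zc3h12a, beside 14.1%). With the length correction 4 of the 7 passed 1 at 1 h, adding Rc3h1 and Elavl1, beside 14.7% of all genes.

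**Figure D3:**
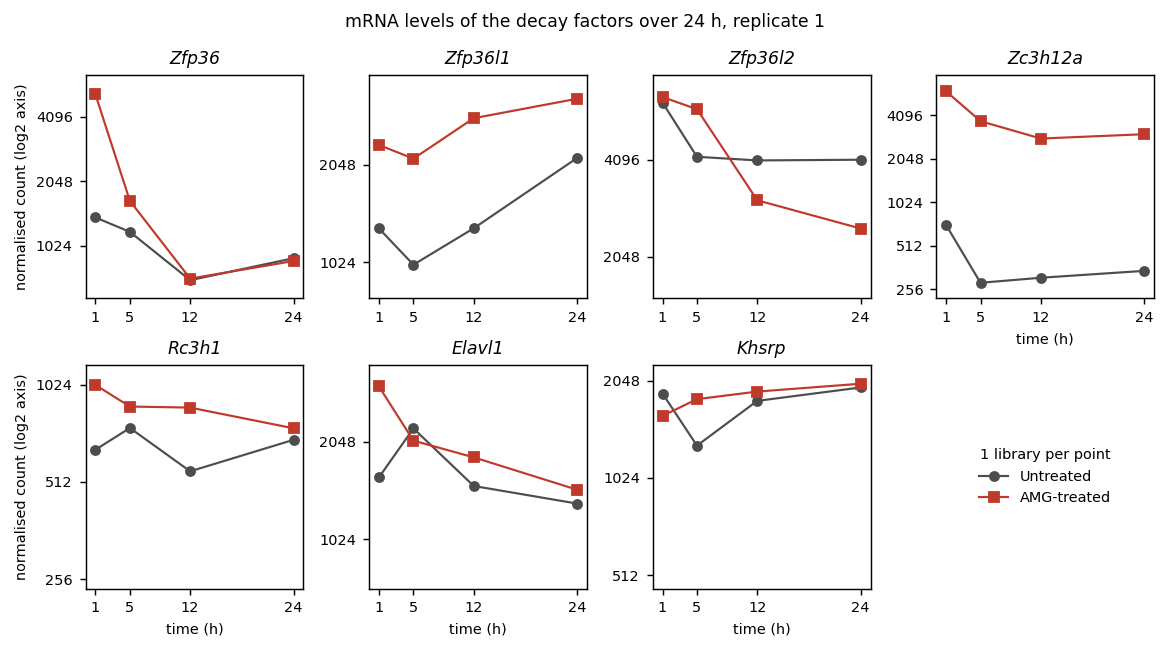
Normalised counts (log2 axis) of the 7 genes in replicate 1 against time, with 1 library per point and no error. AMG-treated Zfp36 fell from 5204 at 1 h to 720.5 at 12 h and met the untreated line, Zc3h12a stayed between 2833 and 6028 in treated libraries against 284 to 714 in untreated ones, and the lines of Zfp36l2 crossed between 5 and 12 h.

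Zfp36 normalised counts were 1389, 1189.99, 708 and 897 in the untreated libraries at 1, 5, 12 and 24 h, and 5204, 1659, 720.5 and 870.4 in the AMG-treated libraries. The treated level was highest at 1 h and then dropped. The log2 ratio was 1.91 at 1 h (95% interval 1.82 to 1.99, a 3.75-fold higher level), with 2.04% of genes above it, then 0.48 at 5 h (0.36 to 0.60), 0.02 at 12 h (−0.11 to 0.16) and −0.04 at 24 h (−0.17 to 0.08). From 1 to 12 h the treated level decreased by 2.85 on the log2 scale, while the untreated level decreased by 0.97. The 1 h ratio was 1.96 after the length correction, although it includes the treated library with the raised ribosomal protein share.

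Zc3h12a normalised counts were 714, 284, 307 and 343 in the untreated and 6028, 3737, 2833 and 3036 in the treated libraries at 1, 5, 12 and 24 h. Both series were highest at 1 h, and the treated level was far above the untreated level at each time. The log2 ratios were 3.08 (95% interval 2.97 to 3.19), 3.72 (3.50 to 3.95), 3.20 (3.06 to 3.36) and 3.14 (3.00 to 3.29), that is 8.44-, 13.1-, 9.19- and 8.83-fold, and at each time under 1% of genes had a larger ratio (0.474% to 0.741%). Its length-corrected ratios were 3.12 to 3.73.

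Zfp36l1 normalised counts were 1301, 1005, 1303 and 2149.6 in the untreated and 2358, 2139.8, 2854 and 3279 in the treated libraries. Its level was higher at 24 h than at 1 h in both conditions. The log2 ratios were 0.86 (95% interval 0.75 to 0.97), 1.09 (0.96 to 1.22), 1.13 (1.05 to 1.22) and 0.61 (0.54 to 0.68), so the treated library was higher at each time. Gm26669, a lincRNA on the opposite strand of this locus, reached at most 38.3 normalised counts.

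Zfp36l2 normalised counts were 6153, 4183, 4075 and 4096 in the untreated and 6404, 5872, 3068 and 2509 in the treated libraries. The untreated level changed little from 5 h on, whereas the treated level went on falling. The log2 ratios were 0.06 at 1 h (95% interval −0.0003 to 0.12), 0.49 at 5 h (0.42 to 0.55), −0.41 at 12 h (−0.47 to −0.35) and −0.71 at 24 h (−0.77 to −0.64). The length-corrected ratios had the same signs (0.27, 0.33, −0.41 and −0.67).

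Rc3h1 normalised counts were 644, 752, 553 and 692 in the untreated and 1022, 877, 870.1 and 751 in the treated libraries. The log2 ratios of 0.67, 0.22, 0.65 and 0.12 became 1.18, −0.57, 0.47 and 0.35 after the length correction, so neither the size at 1 h nor the sign at 5 h was fixed for this long transcript.

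Elavl1 normalised counts were 1592, 2255, 1497 and 1320.2 in the untreated and 3041, 2067, 1835 and 1457 in the treated libraries. The treated level was highest at 1 h and the untreated level at 5 h, in the libraries with the raised ribosomal protein share. The log2 ratios were 0.93, −0.13, 0.29 and 0.14, and 1.38, −0.61, 0.20 and 0.27 after the length correction.

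Khsrp normalised counts were 1868, 1288, 1772 and 1949.7 in the untreated and 1593, 1794, 1894 and 2003 in the treated libraries. Its log2 ratios were small at 12 and 24 h (0.10 and 0.04), with −0.23 at 1 h and 0.48 at 5 h. The length correction brought the latter pair to 0.06 and 0.24.

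**Figure D4:**
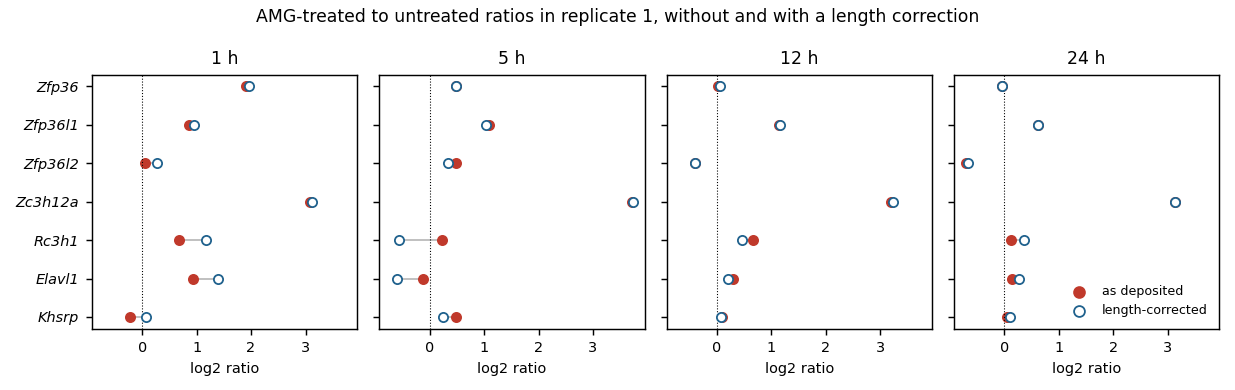
Log2 ratio of AMG-treated to untreated normalised counts in replicate 1 at each time, as deposited (filled) and after the trend over transcript length was removed (open). Zfp36 at 1 h (1.91 and 1.96) and Zc3h12a at 5 h (3.72 and 3.73) hardly moved, whereas Rc3h1 moved from 0.67 to 1.18 at 1 h and from 0.22 to −0.57 at 5 h.

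To place the early peak of Zfp36 and the lasting rise of Zc3h12a among other genes, the 11389 genes that averaged at least 50 normalised counts in replicate 1 were ranked by Pearson's r over the 8 libraries on the log2 scale. The values are descriptions, since the libraries share treatment, depth and, for Zfp36, 1 library with a far higher level. Most like Zfp36 were Btg2 (r = 0.98, an antiproliferative gene whose protein binds the deadenylase), Arf6 (0.98), Socs1 (0.98, an inhibitor of cytokine signalling), Mesdc1 (0.97) and Taf7 (0.97). Over the 6 libraries of replicates 2 to 4 their r with Zfp36 was 0.88, 0.58, 0.60, 0.14 and 0.26, so only Btg2 stayed close. Btg2 had log2 ratios of 2.95, 0.75, 0.16 and −0.55 at 1, 5, 12 and 24 h.

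Most like Zc3h12a were Lif (r = 0.99), Nfkbiz (0.99), Il1a (0.99), Neurl3 (0.98) and Olr1 (0.98), with r of 0.99, 0.98, 0.99, 0.96 and 0.81 over the 6 libraries of replicates 2 to 4. Their log2 ratios were above 2 at each of the 4 times, as were those of Zc3h12a. Lif and Nfkbiz are also on the list of known targets described below.

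The promoters of the regulators were read from RefSeq (GRCm38.p6), as the 250 bases before the transcript start, for the 6 of 7 genes with an entry (Zfp36l2 has none). They were searched on both strands for the kB consensus, the CArG box bound by serum response factor, the AP-1 site TGANTCA and the cyclic AMP response element TGACGTCA. A CArG box was found only in Zfp36, starting 58 bases before the start, where 1.47% of 32817 promoters have one in the same window. In replicate 1 the treated levels of Zc3h12a, Rc3h1 and Elavl1 were also highest at 1 h, and their windows held no such box. Any part of the box in the levels was not tested. It is shown as the only CArG box found, from chr7:28379267-28379296 on the minus strand with the box in capitals. This stretch lies within the first exon of the longer GENCODE transcript.
Zfp36 CArG box: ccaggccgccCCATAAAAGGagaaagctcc

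An AP-1 site was found 129 bases before the start of Zfp36l1 and 133 bases before that of Rc3h1, beside 6.75% of all promoters. The windows of Zc3h12a, Elavl1 and Khsrp held none of these motifs, which says only that these letters are not in this window. No kB consensus was found in any of the 6 windows, beside 7.25% of all promoters, and no TGACGTCA, beside 1.55%.

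The genes around these regulators were described by 4 lists. Of 13 upstream kinases and regulators, 10 had a positive and 3 a negative log2 fold change at 5 h, with a median of 0.25. None was called by limma without a block, nor by edgeR, while 4 had an unadjusted p under 0.05 and DESeq2 called 3, all higher. With the block 6 were called as higher and 1 as lower, 7 of 13 beside 37.2% of all genes (17.9% as higher), and 1 and 0 once the pair of replicate 1 was added. The 6 with the largest differences were Bcl10 (0.97, adjusted p = 0.00121 in limma with the block), which acts with the protease that cleaves regnase-1, the p38 kinase Mapk11 (0.89, 0.00360), Mapkapk3 (0.57, 0.00765) and Mapkapk2 (0.52, 0.00415), the kinases that phosphorylate tristetraprolin, the p38 activator Map2k3 (0.46, 0.00558) and Irak1 (−0.41, 0.0180), which acts in interleukin-1 and Toll-like receptor signalling.

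Of 37 genes of deadenylation and decay, 22 had a positive and 15 a negative log2 fold change, with a median of 0.12. None was called by limma or edgeR without a block, while 8 had an unadjusted p under 0.05 in limma and DESeq2 called 1 higher and 1 lower. With the block 9 were called as higher and 4 as lower, 13 of 37 beside 37.2% of all genes, and 0 and 1 once the pair of replicate 1 was added. The largest were Tob1 (−0.91, adjusted p = 0.00194 in limma with the block), Btg1 (0.88, 0.00285), Exosc3 of the exosome (0.76, 0.00755), Btg2 (0.67, 0.0406), the deadenylase scaffold Cnot1 (−0.66, 0.00223) and Lsm1 of the decapping complex (0.60, 0.0168). Btg1, Btg2 and Tob1 encode antiproliferative partners of the deadenylase.

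Of 18 related RNA-binding proteins, 13 were expressed enough to be tested, 4 with a positive and 9 with a negative log2 fold change and a median of −0.25. None was called by limma or edgeR without a block, 1 had an unadjusted p under 0.05 and DESeq2 called 1. With the block 2 were called as higher, Hnrnpd (0.45, adjusted p = 0.0126 in limma) and Tial1 (0.38, 0.0191), and 4 as lower, among them Celf2 (−0.76, 0.00299), Tia1 (−0.36, 0.0359) and N4bp1 (−0.34, 0.0255). These are 6 of 13, beside 37.2% of all genes, and none was called by limma once the pair of replicate 1 was added (3 at an unadjusted p under 0.05). That split depended on transcript length, since 5 were called as higher and 1 as lower with the length correction and the block.

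Of 25 known target transcripts of these factors, 20 were tested, and 18 had a positive log2 fold change, with a median of 3.06, or 2.90 with the 2 genes without untreated reads at their lower bound. Limma without a block called 11, all higher, beside 1.24% of all genes (0.970% as higher). With the block 17 were called as higher and 1 as lower, beside 37.2% of all genes (17.9% as higher). Leaving out the AMG-treated library of replicate 2 left none called, with 14 at an unadjusted p under 0.05. The largest were the chemokines Cxcl2 (log2 fold change 9.13, adjusted p = 0.0190 in limma) and Cxcl1 (7.58, 0.00567), the cytokines Il6 (6.72, 0.0402) and Lif (6.69, 0.00567), and the chemokine Ccl2 (5.07, 0.0196). Untreated means of Il6 (9.63 ± 13.4) and Cxcl2 (14.4 ± 10.8, SD, n = 3) were low, so the size of their change is uncertain. Csf2 had no read in the untreated libraries and normalised counts of 18.9 to 303 in the treated ones, at least 62.2-fold higher against 3 reads per untreated library (adjusted p = 0.0414 in limma). Named after their values were seen, Fos was lower with the block (−1.33, adjusted p = 0.00128 in limma), and Tfrc (−0.15) and Notch1 (0.17) passed neither model. In replicate 1 the median log2 ratio of the 19 targets with enough counts was 2.45, 2.38, 2.30 and 2.48 at 1, 5, 12 and 24 h, beside ratios of Zfp36 that went from 1.91 to −0.04.

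**Figure D5:**
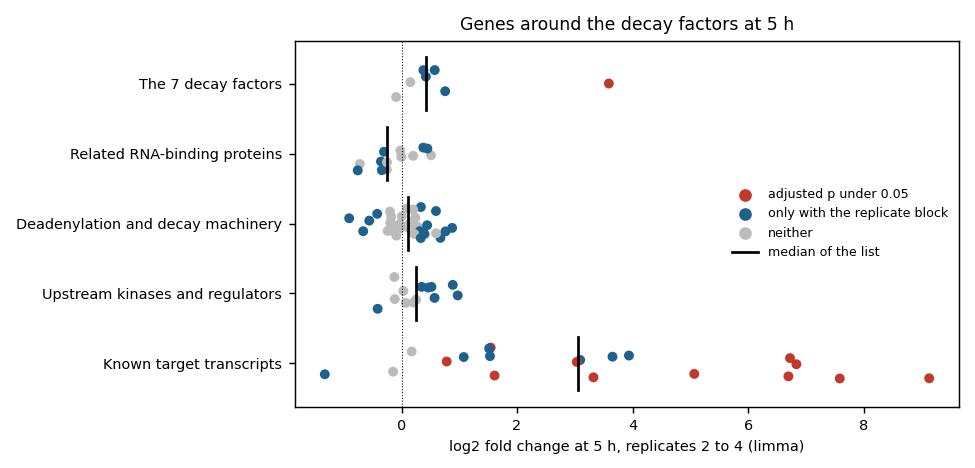
Log2 fold change at 5 h in replicates 2 to 4 (limma) for the 7 decay factors and the 4 lists. Each point is 1 gene, coloured by whether it passed without a block, only with the replicate block, or neither, and vertical lines are list medians. The known targets have a median of 3.06 against 0.42 for the decay factors and 0.12 for the decay machinery.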

How the data were processed

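RNA-seq was made with a stranded mRNA kit. Per the labels and the study's methods, the authors aligned reads with TopHat2 2.0.13 to mm10, counted reads per gene with HTSeq 0.5.3p3 and divided them by DESeq size factors. Which annotation was used and whether counting used strand is not given in the sources used here, nor how reads shared by the Zfp36 paralogs were treated beyond keeping unique alignments. The deposited values are a signal per gene in normalised counts, in 2 separately scaled tables with 0 columns of no sample. All values (100%) were whole multiples of 1 step per library within 0.1 read, so the reads were recovered: 12545537 to 34696529 per library, where 3 reads mark the floor.

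Differences at 5 h (replicates 2 to 4, 3 against 3 libraries) were tested two-sided with limma 3.58.1 in R 4.3.3 (eBayes with trend) on log2(normalised count + 1) for 13096 genes with a mean of at least 10. This scale understates the change of low genes. Genes were called at an adjusted p (Benjamini-Hochberg, all tested genes) under 0.05. Libraries of the same replicate number deviated together from their group means (r = 0.65, 0.76 and 0.70), so the number pairs them. Replicate 1 has 1 library per condition and time, with no test and exact (Clopper-Pearson) 95% counting intervals. Alternatives were edgeR 4.0.16 and DESeq2 1.42.0 on whole reads, the block, other pseudocounts and filters, upper quartile rescaling, a lowess correction for transcript length, and each library left out. The fits were also run on simulated counts without a replicate effect, so that check does not bear on the choice between models with and without the block. All 7 genes are named, with at most 6 per list that passed with or without the block, by size, and the 5 genes most like Zfp36 and Zc3h12a. The genes and lists were chosen with earlier results of these data known. The values of 1 listed gene are not reported here.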

Additional observations from a re-analysis of the deposited data

Results flagged for a closer look

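Of the 7 sets of 4 pairwise ratios at 5 h, 1 held a value far from the others. The log2 ratio of Khsrp in replicate 1 was 0.48, whereas replicates 2 to 4 gave −0.07, −0.09 and −0.13, and the gap took 0.906 of the whole range, above the critical value of Dixon's test at the 95% level. Chance alone passes that critical value in about 1 in 20 sets, and 7 sets were searched. The untreated library of that pair has the highest ribosomal protein share (6.93%), and the part of that share in the gap was not tested. After the length correction the ratio was 0.24, beside 0.09, −0.05 and 0.04 in replicates 2 to 4, so the values lay closer together. The search used the ratios before that correction.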

How the results depend on the processing

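The count of the 7 genes called at 5 h (1 by limma) was 5 with the replicate block, 5 by edgeR with the replicate block, 3 by DESeq2 (Zc3h12a, Zfp36l2 and Elavl1), 2 with the length correction (Zc3h12a and Elavl1) and 5 with the length correction and the block. With all 4 replicates it was 1 (Zc3h12a), both with the replicate block and with the table as batch, so the blocked count of 5 holds for replicates 2 to 4 only. Leaving out 1 library gave 0 to 3. It was 0 without AMG-treated replicate 2 (limma, with 3 of the 7 at an unadjusted p under 0.05, and Zc3h12a at 3.64) and 3 without AMG-treated replicate 3, where Zfp36l2 (0.95, adjusted p = 0.0244 in limma) and Elavl1 (0.58, 0.0261) were added. Over all genes, limma called 127 higher and 35 lower, edgeR 107 and 28, DESeq2 861 and 579, and limma with the block 2345 and 2527. Without AMG-treated replicate 2 limma called 1 and 0, and without AMG-treated replicate 3 it called 1146 and 1054. Except for Zfp36l1, Zfp36l2, Rc3h1 and Elavl1, the block changed no call among the 7 genes. The log2 fold change of Khsrp at 5 h (−0.09) turned positive with the length correction (0.0286, and 0.0286 with the block), with all 4 replicates (0.0490 with the table as batch, 0.0490 with the replicate block) and within a range of −0.26 to 0.0657 over the libraries left out. In replicate 1 the length correction raised the count past 1 at 1 h from 2 to 4 by adding Rc3h1 and Elavl1, turned Khsrp at 1 h from −0.23 to 0.0597 and turned Rc3h1 at 5 h from 0.22 to −0.57. The causes were not tested. Of 252 alternative values of single genes, 216 kept direction and side of the threshold, or moved by less than the counting error where there was no test, 17 newly passed the threshold, 1 no longer did, 10 moved further and 8 changed sign. The adjusted p of Zc3h12a ranged from 1.66e-32 to 0.0703 over the alternatives. With 1 library per time, the time course cannot show differences below library-to-library variation.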
